A study of Mus musculus with 5 samples.

Results

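The genes described here encode the proteins of the cytosolic ribosome, measured in single T cells sorted from the mouse brain. They were chosen by name: every row whose symbol is Rpl or Rps followed by a number (with an optional letter or copy digit), plus Rpsa, Rplp0, Rplp1 and Rplp2. Mitochondrial ribosomal proteins and rows named as pseudogenes with a -ps suffix were not taken. This gave 88 of 52542 genes, of which 49 belong to the large subunit, 36 to the small subunit and 3 (Rplp0, Rplp1, Rplp2) to the stalk of the large subunit. The annotation lists 5 of them as pseudogenes (Rps4l, Rps12l1, Rpl6l, Rps3a2 and Rps3a3). A UMI (a molecular identifier that marks 1 captured mRNA molecule) was found for 82 of the 88 in the cells kept.

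The ribosome consists of ribosomal RNA and a fixed set of proteins, each present once except for the stalk proteins. Ribosomal protein mRNAs are among the most abundant of any cell, and most begin with a short run of pyrimidines (the 5′ TOP motif) through which mTOR signalling sets their translation. Naive and recirculating T cells hold large pools of these mRNAs, which are read by ribosomes at a higher rate after activation. Klf2 encodes a transcription factor of quiescent, recirculating T cells, and Cxcr6 a chemokine receptor of T cells that settle in tissue.

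The cells came from 5 mice of the strain labelled Grl1loxP/loxP. In 3 of them (TAT-CRE 207 and 208 at 18 weeks of age, TAT-CRE 215 at 19 weeks) a cell-permeable Cre recombinase was injected into the brain ventricles, by the study's design to lower the glucocorticoid receptor in the choroid plexus. The 2 controls (PBS 216 at 19 weeks and PBS 218 at 16 weeks) carried the same loxP alleles and received saline the same way. Foot-shock stress was given to every mouse, so no unstressed mice were compared, and brain parenchyma without the choroid plexus was taken on day 14 after it. T cells (CD45+CD11b-TCRβ+) were sorted 1 per well, and each mouse filled 1 plate. The choroid plexus was not analysed here, so these counts do not check the deletion.

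Wells with 1 cell, at least 400 UMIs and at most 30% mitochondrial UMIs were kept, which left 1482 cells (274 to 311 per mouse). Shares below are percentages of the UMIs outside the ribosomal RNA rows Gm42418, Gm26917, mt-Rnr1 and mt-Rnr2, which took 28.3% to 48.0% of the UMIs of a mouse. Values of single mice follow the order 207, 208, 215 (TAT-CRE) and 216, 218 (PBS). The median cell held 727 to 1504 UMIs outside these rows, depending on the mouse. The 5 plates used the same 384 well barcodes, so a barcode names a well within a plate only. Of 8 T cell markers all 8 were detected, at 7111 to 8591 CPM in sum (counts scaled to a common total per mouse or class). The neutrophil and neuron markers were at 0, and the monocyte or macrophage markers summed to at most 6.64 CPM. Other lists were low but present: oligodendrocyte genes summed to 146 to 238 CPM per mouse (Mog at 0), B cell genes to 130 to 304, endothelial genes to 36.0 to 272, NK genes to 10.7 to 196 and microglial genes to 9.81 to 156 (P2ry12 and Tmem119 at 0).

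Because the ribosomal protein genes have many near-identical pseudogene copies and carry small nucleolar RNA (snoRNA) genes in their introns, the UMIs in such rows were counted first. The member rows held 157414 UMIs. Another 37175 UMIs were in 32 rows of snoRNAs, microRNAs and other genes that lie inside a member gene on its strand. A further 148488 UMIs were in 770 pseudogene rows that match a member mRNA at 90% identity or more over at least 60% of their length. For 47 of the 88 members the gene's own row held the smaller part of this total. Rpl13a, a large-subunit protein, had 37 UMIs in its own row, while Snord32a, a snoRNA inside it, had 10209. Rps21 had 1630 UMIs against 6477 in Mir3091 inside it, and Rps3 had 495 against 5306 in Snord15b. Of the 22 members with under 100 UMIs, 16 passed 1000 UMIs once these rows were added. Whether the UMIs of these rows came from the mRNAs of the members was not tested. A low value of a single member in these counts is therefore not taken as a measure of its mRNA.

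**Figure D1:**
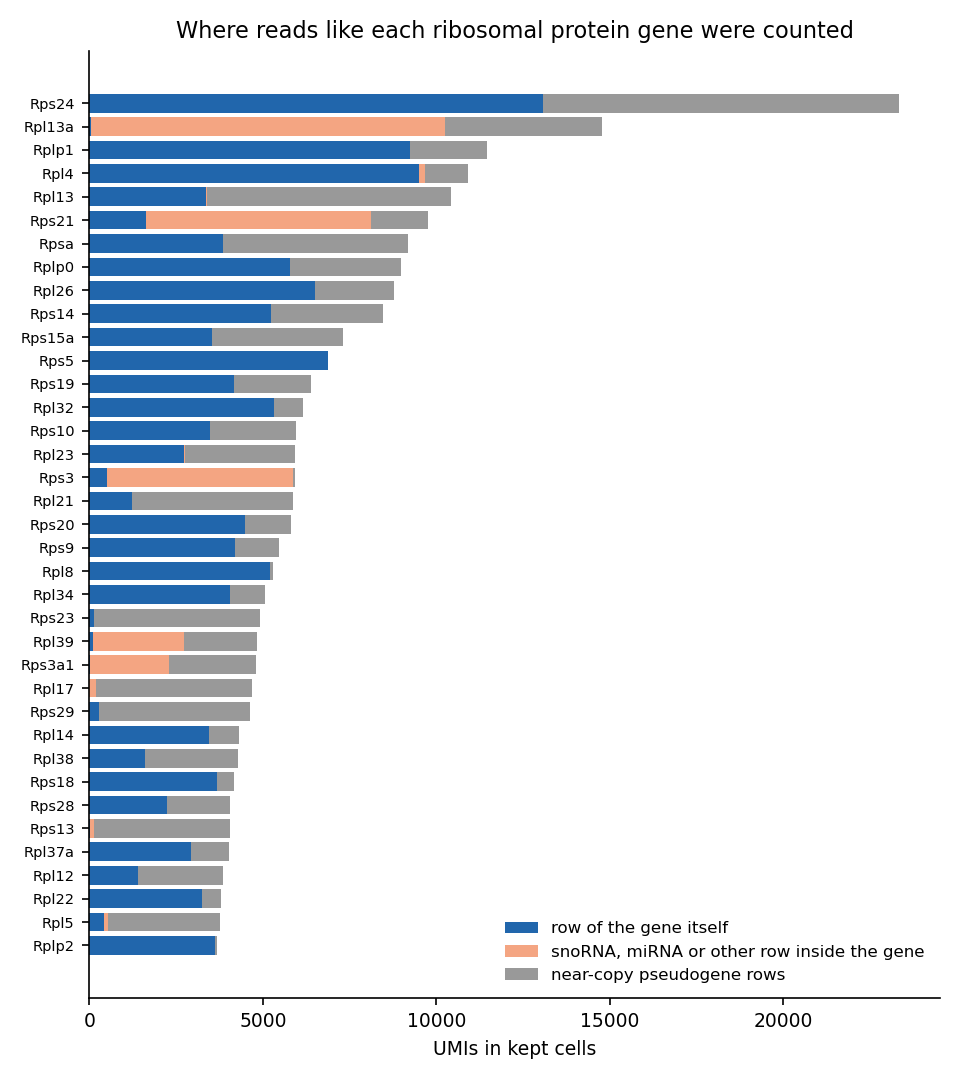
UMIs in kept cells (x axis) for 37 of the 40 ribosomal protein genes with the largest sums, split into the gene's own row (blue), rows inside the gene (orange) and near-copy pseudogene rows (grey). For Rpl13a, Rps3 and Rps21 the orange part is the longest, and for Rps13 nearly all UMIs are in near copies.

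The last 90 coding bases before the stop codon show how close a copy can be. They are printed for 3 genes with many UMIs in a near copy, picked by hand. The other near copies, accepted from 90% identity, were not compared in this way. They come from GENCODE M21 transcripts (mm10), with any base that differs between a gene and its copy to be set in capitals. The spans are those of the whole genes. Rps13 lies at chr7:116331505-116334195 on the minus strand and had 4 UMIs, and the processed pseudogene Rps13-ps2 at chr7:88530446-88530898 on the minus strand had 1943. Rpl5 lies at chr5:107900502-107909005 on the plus strand and had 413 UMIs, and the pseudogene Gm15500 at chr7:114705217-114706235 on the minus strand had 2798. Rplp0 lies at chr5:115559467-115563727 on the plus strand and had 5790 UMIs, and the processed pseudogene Gm8730 at chr8:102864845-102865798 on the minus strand had 2973.
Rps13: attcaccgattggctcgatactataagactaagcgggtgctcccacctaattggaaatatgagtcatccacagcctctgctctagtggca
Rps13-ps2: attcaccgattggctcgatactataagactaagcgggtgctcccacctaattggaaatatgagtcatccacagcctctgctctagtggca
Rpl5: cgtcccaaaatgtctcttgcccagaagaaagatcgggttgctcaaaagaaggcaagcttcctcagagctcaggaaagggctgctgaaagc
Gm15500: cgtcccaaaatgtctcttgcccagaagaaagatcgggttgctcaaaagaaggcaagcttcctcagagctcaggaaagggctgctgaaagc
Rplp0: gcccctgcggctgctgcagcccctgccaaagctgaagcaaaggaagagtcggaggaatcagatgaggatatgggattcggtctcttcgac
Gm8730: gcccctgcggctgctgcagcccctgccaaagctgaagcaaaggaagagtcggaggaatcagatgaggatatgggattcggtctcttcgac
In all 3 pairs 0 of the 90 bases differed, so a read from this stretch cannot be assigned to the gene or to its copy.

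Start sites were compared next, since the 5′ TOP motif is what these genes are known to share and the selection by name did not use it. RefSeq start windows (GRCm38.p6) were found for 64 of the 88 members, with 1 window taken per gene. CTTTC or CTTTT on the gene's strand, within 10 bases before to 20 bases after the annotated start, was present in 16 of the 64 (25%) and in 6.51% of 27025 windows of all genes. CCGGAAGT, the core of the site bound by ETS factors, was searched on both strands from 250 bases before to 50 after the start and was present in 12 members (18.8%) and in 4% of all windows. The 70 bases around the start are shown for 3 of the 16 members with the first motif, whose match is in capitals. These 3 are examples and not a ranking of the 16 by UMIs. Rps19 and Rplp0, to which the results return, are shown beside them and had no match. The search used fixed strings at the annotated start, so no match does not show that a 5′ TOP motif is absent. Rplp2 is at chr7:141447601-141447670 (plus), Rps10 at chr17:27635225-27635294 (minus), Rpl38 at chr11:114668530-114668599 (plus), Rps19 at chr7:24884542-24884611 (plus) and Rplp0 at chr5:115559417-115559486 (plus).
Rplp2: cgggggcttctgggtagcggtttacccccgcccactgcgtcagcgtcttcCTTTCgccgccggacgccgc
Rps10: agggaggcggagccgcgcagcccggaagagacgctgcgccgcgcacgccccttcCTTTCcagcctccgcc
Rpl38: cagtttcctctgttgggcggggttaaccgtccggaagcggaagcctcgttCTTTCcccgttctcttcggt
Rps19: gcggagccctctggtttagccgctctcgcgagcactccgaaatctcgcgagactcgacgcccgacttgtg
Rplp0: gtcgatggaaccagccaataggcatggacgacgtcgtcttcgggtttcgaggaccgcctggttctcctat

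In the kept cells of each mouse the members took a similar share of the UMIs. The share was 8.96% in TAT-CRE 207, 9.07% in TAT-CRE 208, 9.80% in TAT-CRE 215, 9.32% in PBS 216 and 8.97% in PBS 218. With the rows inside the genes and the near copies added, the same mice stood at 19.7%, 19.6%, 21.0%, 20.3% and 19.7%. No kept cell lacked a member UMI, and the median cell had 84. Single cells ranged widely within a mouse: the 10th percentile of the share was 5.05% to 6.11% and the 90th was 12.3% to 13.4%. In 20 wells that held no cell, 49 of 617 UMIs were from members, which is 7.94% (exact binomial 95% interval 5.93% to 10.4%, counting error only). That interval includes the share in the cells of every mouse.

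Among single members, counted by UMI without correction for the rows described above, Rps24 of the small subunit had the largest count. It reached 13087 UMIs and was found in 91.2% of cells, at 7354, 7988 and 8216 CPM under TAT-CRE, 7890 and 7149 under PBS. Rpl4, a large-subunit protein, was at 5628 ± 538 CPM (SD, n = 5 mice), and the stalk protein Rplp1 at 5398 ± 331. Small-subunit members summed to 4.28% ± 0.206 of UMIs, large-subunit members to 3.85% ± 0.112 and the 3 stalk members to 1.09% ± 0.0578 (SD, n = 5 mice). Methods that count 1 tag per molecule are not scaled by transcript length, and levels of different members are not compared further here.

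The paralogs, second genes for the same protein that are mostly known from particular tissues, ranged from no UMI to the 730 UMIs of Rpl22l1. Rpl3l, the muscle form of Rpl3, and Rpl10l, a testis form of Rpl10, had no UMI, which allows up to 1.75 CPM. Rpl39l had 6 UMIs in 2 cells. Rps27l, a p53 target, was at 90.6, 84.7 and 81.7 CPM under TAT-CRE, 73.1 and 113 under PBS, and Rps27 was at 177 to 274. Rpl22l1, the paralog of Rpl22 that T cells are known to express, was found in 301 cells at 445, 420 and 490 CPM under TAT-CRE, 415 and 380 under PBS. Rpl22 itself was at 1602 to 2361 in the same 5 mice. Rpl39 and Rpl3 were low in their own rows (90 UMIs and 1 UMI), with 2628 and 295 more in rows inside them and 2119 and 1083 in near copies.

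Cells with a Klf2 UMI and no Cxcr6 UMI (139 cells, called Klf2 cells) gave a larger share to the ribosomal protein genes than cells with a Cxcr6 UMI and no Klf2 UMI (384 cells, called Cxcr6 cells). In Klf2 cells the share was 9.55%, 10.8% and 11.96% under TAT-CRE, 9.80% and 9.90% under PBS. In Cxcr6 cells it was 8.43%, 8.05% and 9.37% under TAT-CRE, 8.69% and 8.17% under PBS. Every Klf2 value lay above every Cxcr6 value, and the difference within a mouse was 1.86 ± 0.778 percentage points (mean ± SD, n = 5 mice), from 1.12 to 2.74. The 910 cells with neither UMI were at 9.35% ± 0.316, below the Klf2 cells of the same mouse and above its Cxcr6 cells in 5 of 5 mice each. The mean difference between Klf2 and Cxcr6 cells, 1.86 points, was larger than the SD between mice of either class (0.989 and 0.525). The 49 cells with both UMIs ranged from 8.37% to 11.1% over the mice, from 4 to 20 cells a mouse.

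Rows that the name rule did not take gave the same order. The rows inside the members and the near copies made up 12.1% ± 0.880 of UMIs in Klf2 cells and 10.2% ± 0.377 in Cxcr6 cells, and the difference was 1.89 percentage points, positive in 5 of 5 mice. These rows were counted in the same cells, so they do not repeat the measurement in other samples. With all rows together the shares were 22.5% ± 1.85 and 18.8% ± 0.880 (SD, n = 5 mice each). Cells with neither UMI were at 10.9% ± 0.3998 in these rows, between the other classes in 4 of 5 mice. In PBS 216 they were at 11.5% and its Klf2 cells at 11.4%.

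**Figure D2:**
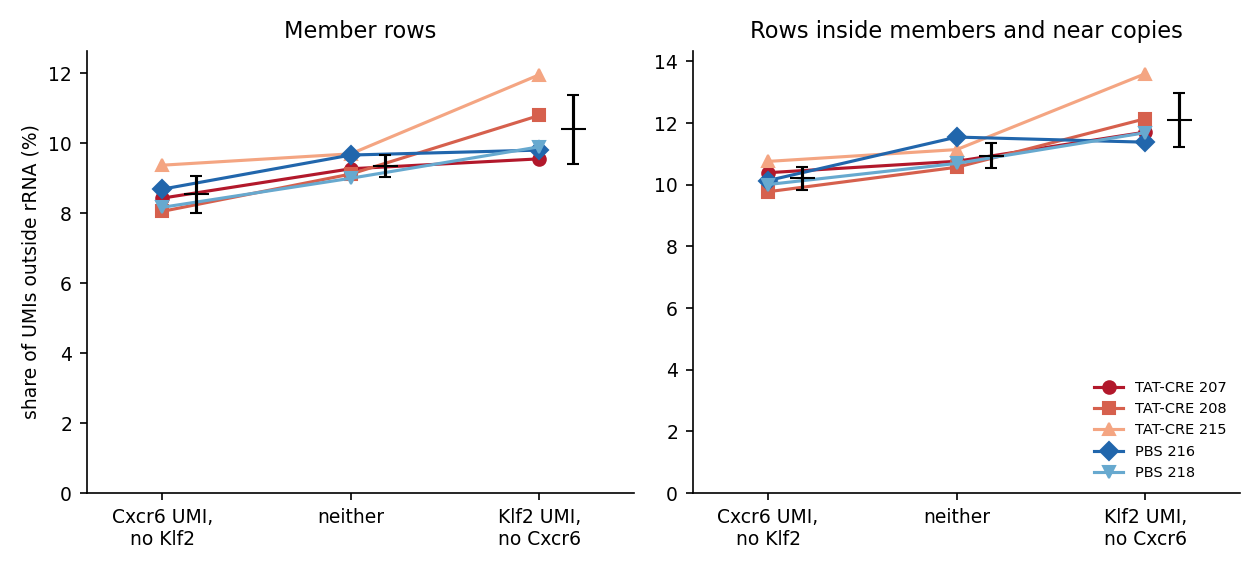
Share of UMIs outside ribosomal RNA (y axis, %) in cells with a Cxcr6 UMI only, with neither UMI and with a Klf2 UMI only (x axis), with 1 line per mouse and the mean ± SD over 5 mice in black. On the left, member rows go from 8.05% to 9.37% in Cxcr6 cells to 9.55% to 11.96% in Klf2 cells. On the right, rows inside the members and near copies are higher in Klf2 than in Cxcr6 cells in each mouse.

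The share was compared within depth and lineage, since both could differ between the classes. Median UMIs per cell were 1298 ± 329 in Klf2 cells and 1147 ± 394 in Cxcr6 cells (SD over 5 mice), higher in Klf2 cells in 3 of 5 mice. The median mitochondrial share was 17.9% ± 1.80 and 18.7% ± 1.90. Among all cells with 400 to 800 UMIs outside ribosomal RNA, pooled over the mice, the share was 10.99% in Klf2 and 8.15% in Cxcr6 cells. It was 10.3% and 8.49% at 800 to 1600 UMIs and 10.02% and 8.61% above 1600. In these pooled cells the gap kept its direction in each depth range and was smaller in the deep cells. The mice differed in both depth and gap, and the part of either in the narrowing was not tested. Within CD8 cells (a Cd8a or Cd8b1 UMI and no Cd4 UMI) the difference was 1.82 points, again positive in 5 of 5 mice. This comparison held 63 Klf2 and 190 Cxcr6 cells. CD4 cells (a Cd4 UMI and no Cd8a or Cd8b1 UMI) were few. Pooled over the mice, 14 Klf2 cells among them were at 9.15% and 23 Cxcr6 cells at 8.52%. The Klf2 cells were higher in TAT-CRE 215, PBS 216 and PBS 218 and lower in TAT-CRE 207 (8.03% and 8.24%). TAT-CRE 208 had no such Klf2 cell. Over cells of all lineages, with the ribosomal RNA rows kept in the total, the difference was 0.976 points, positive in 5 of 5 mice. PBS 216 was then at 4.91% in Klf2 and 4.72% in Cxcr6 cells. After thinning each cell to 200 UMIs, with the classes set anew from the thinned counts, the difference was 1.76 points and positive in 4 of 5 mice. Thinning left 4 to 17 Klf2 cells per mouse.

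The classes also differed in other markers. Naive or central memory genes summed to 3689 ± 976 CPM in Klf2 cells and 1147 ± 170 in Cxcr6 cells, higher in Klf2 cells in 5 of 5 mice. Tissue-resident memory genes stood at 592 ± 235 and 1528 ± 277, lower in Klf2 cells in 5 of 5 mice. The CD8 list (Cd8a, Cd8b1, Gzmk, Eomes and Nkg7) stood at 2227 ± 334 and 3455 ± 933, also lower in 5 of 5 mice. CD8 cells, as defined above, made up 45.6% ± 6.04 of Klf2 and 47.1% ± 16.5 of Cxcr6 cells. Their part was larger in Klf2 cells in 2 of 5 mice. The T cell list was at 7037 ± 1562 and 7526 ± 700, lower in Klf2 cells in 4 of 5 mice, and the CD4 list at 547 ± 424 and 444 ± 181, higher in 4 of 5. Of other cell types, the NK list ranged from 0 to 13.0 CPM in Klf2 cells and from 0 to 102 in Cxcr6 cells. The B cell list (4 of 6 genes detected, Cd79a at 0) ranged from 125 to 362 CPM and from 34.0 to 231, and the endothelial list (1 of 4 genes detected, Cldn5, Flt1 and Cdh5 at 0) from 36.3 to 618 and from 22.7 to 246, higher in Klf2 cells in 4 of 5 mice. The part of these genes in the share was not tested.

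By role, the difference was present in both subunits. Small-subunit members took 4.88% ± 0.417 of UMIs in Klf2 cells and 3.95% ± 0.350 in Cxcr6 cells, a difference of 0.924 ± 0.247 percentage points in 5 of 5 mice. Large-subunit members took 4.27% ± 0.425 and 3.59% ± 0.145, a difference of 0.683 ± 0.374 points in 5 of 5 mice. The stalk proteins took 1.25% ± 0.212 and 1.00% ± 0.0701, and were higher in Klf2 cells in 4 of 5 mice. As a ratio, Klf2 over Cxcr6 cells, the subunits stood at 1.24 ± 0.0720 (small) and 1.19 ± 0.102 (large), closer than their spread over the mice.

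Gene by gene, no member passed the test between Klf2 and Cxcr6 cells. Over 2495 genes tested in sums per mouse, edgeR's quasi-likelihood test with mouse as a block called 0 of 62 members at an adjusted p under 0.05 (Benjamini-Hochberg), where 0.281% of all genes tested were called higher and 0.721% lower in Klf2 cells. At an unadjusted p under 0.05, 6 members were higher and 0 lower, beside 1.36% and 6.73% of all genes. DESeq2 also called 0 members. The members tested passed the filter on low counts and had a median of 1581 UMIs, against 243 over all genes tested.

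With the filter on low counts the members nonetheless leaned one way. With TMM scaling, 45 of 62 (72.6%) had a log2 fold change above 0, against 36.8% of all genes. The median was 0.10 for the members and -0.23 for all genes tested, and small-subunit members were at 0.13 and large-subunit members at 0.04. Scaling by the total alone moved the median of all genes to -0.11 and that of the members to 0.23, with 53 members above 0 and 9 below. With no filter on low counts the medians were -0.11 for 81 members and -0.80 for all genes, and 26 members were above 0 and 55 below. The members' side of 0 thus depended on that filter, and their median was above that of all genes with it and without it. Counted without a model, 17 of 62 members (27.4%) were higher in Klf2 cells in 5 of 5 mice and 0 were lower in all 5, where 3.81% of all genes were higher and 4.73% lower. The 17 were Rpl8, Rpl13, Rpl21, Rpl23, Rpl24, Rpl29, Rpl34, Rpl35, Rpl38, Rplp0, Rps4x, Rps10, Rps19, Rps20, Rps24, Rps28 and Rpsa. The Cxcr6 cells summed to 508129 UMIs and the Klf2 cells to 205912. The part of this imbalance and of the members' greater depth was not tested, for this count or for the medians. Standing above the median of all genes is therefore not read as a result about the members.

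**Figure D3:**
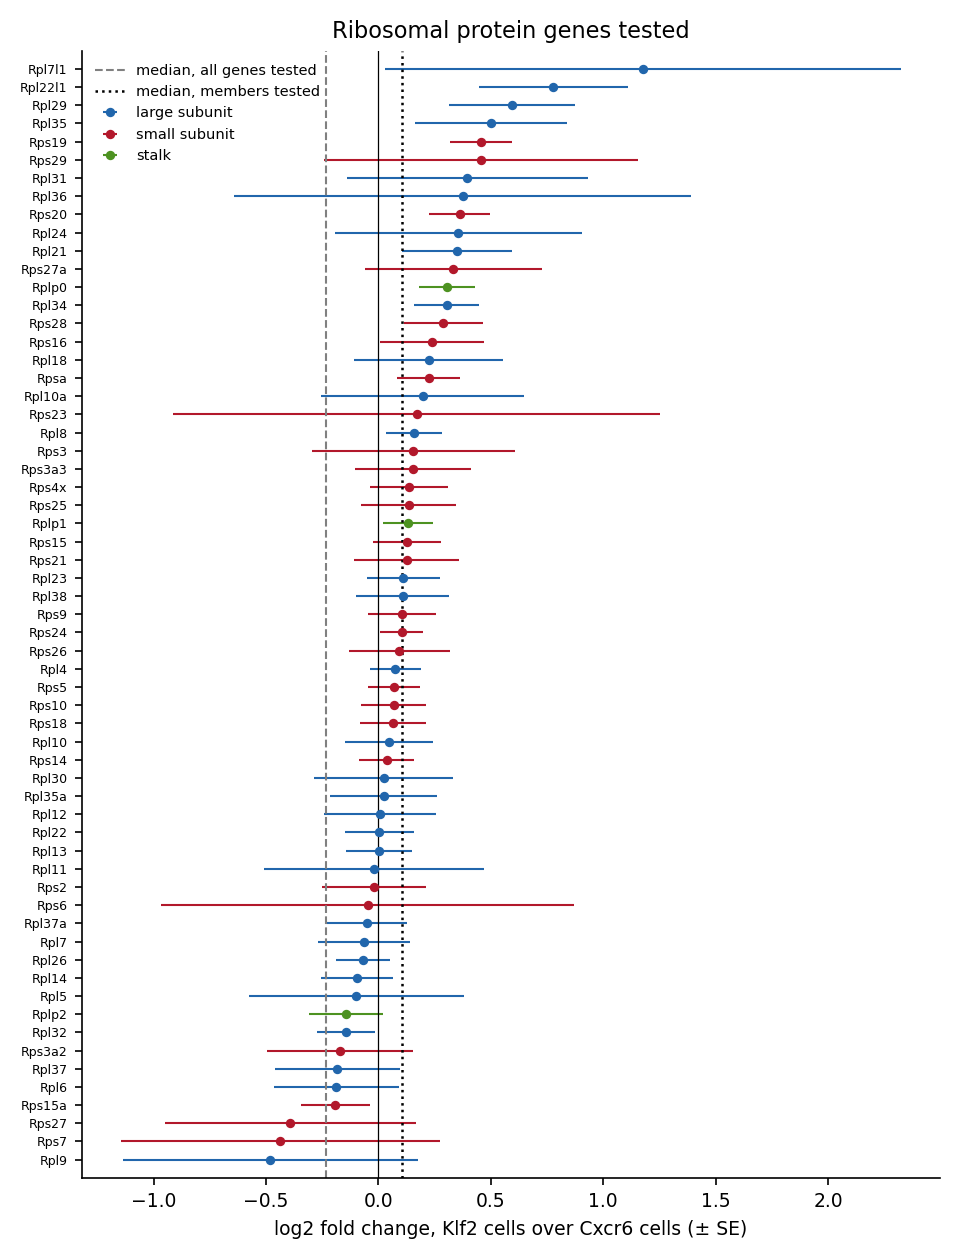
Log2 fold change, Klf2 over Cxcr6 cells (x axis, bars ± SE from edgeR), of 61 of the 62 members tested, coloured by subunit. The dashed line is the median of all genes tested (-0.23) and the dotted line that of the members (0.10), with most members to the right of 0.

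Rps19, a small-subunit protein mutated in Diamond-Blackfan anaemia, had the smallest p. In Klf2 cells it was at 2813, 3650 and 4358 CPM under TAT-CRE, 2439 and 3571 under PBS. In Cxcr6 cells it was at 1725, 2090 and 2528 under TAT-CRE, 2403 and 2061 under PBS. The classes were far apart in 4 mice and nearly equal in PBS 216. The log2 fold change was 0.46 ± 0.14 (SE), 0.69 above the median of all genes, with an adjusted p of 0.132 by edgeR. Without PBS 216 it was 0.61 (edgeR adjusted p = 0.0123), and with the 2210 UMIs of its near copies added it was 0.46 (edgeR adjusted p = 0.0447).

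Rps20, which sits in the head of the small subunit, was at 3154, 2815 and 3341 CPM in Klf2 cells under TAT-CRE, 2970 and 3440 under PBS. In Cxcr6 cells it was at 2147, 2053 and 2318 under TAT-CRE, 2188 and 2183 under PBS. The classes did not overlap, and the Cxcr6 values lay close together. Its log2 fold change was 0.36 ± 0.13 (edgeR adjusted p = 0.335).

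Rplp0, the stalk protein that anchors Rplp1 and Rplp2, was at 3325, 4486 and 4431 CPM in Klf2 cells under TAT-CRE, 4064 and 4261 under PBS. In Cxcr6 cells it was at 2485, 2368 and 3759 under TAT-CRE, 3265 and 2970 under PBS, below the Klf2 cells of the same mouse each time. The log2 fold change was 0.31 ± 0.12 (edgeR adjusted p = 0.426). Of the other stalk proteins, Rplp1 was at 6336 ± 1769 and 4979 ± 229 and Rplp2 at 2098 ± 498 and 2064 ± 196 CPM in Klf2 and Cxcr6 cells (SD, n = 5 mice). Rplp2 thus differed by less than its spread. The log2 fold changes were 0.13 for Rplp1 and -0.14 for Rplp2.

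The other members at an unadjusted p under 0.05 were Rpl22l1, Rpl29 and Rpl34, all of the large subunit. Rpl22l1 was at 405, 1099 and 872 CPM in Klf2 cells under TAT-CRE, 719 and 547 under PBS. In Cxcr6 cells it was at 535, 277, 262, 363 and 353 in the same order. It was lower in Klf2 cells of TAT-CRE 207 and higher in the other 4 mice, with a log2 fold change of 0.78 ± 0.33 (edgeR adjusted p = 0.491). Its partner Rpl22 had a log2 fold change of 0.00 ± 0.16, among the largest p of the members. Rpl29 was at 862 ± 413 in Klf2 and 477 ± 73.0 CPM in Cxcr6 cells, with a log2 fold change of 0.60 ± 0.28. Rpl34 was at 2797 ± 340 and 2024 ± 497, with a log2 fold change of 0.30 ± 0.14 (SD over 5 mice for levels, SE for fold changes). Neither had an edgeR adjusted p under 0.5.

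**Figure D4:**
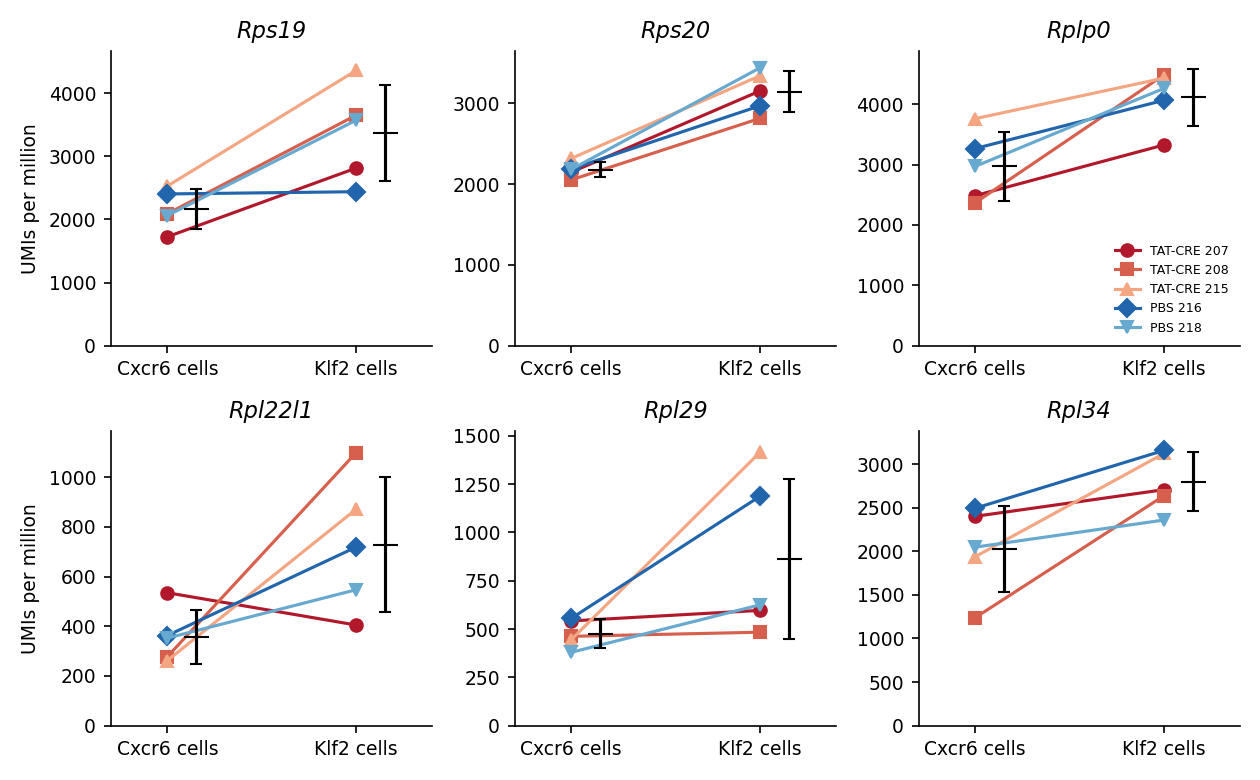
CPM (y axis, from 0) in Cxcr6 and Klf2 cells of each mouse (lines) for the 6 members with the smallest p, with mean ± SD over 5 mice in black. Rps20 separates the classes in every mouse, Rps19 is nearly flat in PBS 216, and Rpl22l1 falls in TAT-CRE 207.

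Next in order of p on the higher side came Rps28, Rpsa, Rpl35 and Rpl21, with log2 fold changes of 0.29, 0.22, 0.50 and 0.35. Rpsa, a small-subunit protein that is also found at the cell surface as a laminin receptor, was at 2153, 3474 and 3269 CPM in Klf2 cells under TAT-CRE, 2376 and 2463 under PBS. In Cxcr6 cells it was at 1591, 2109 and 2672 under TAT-CRE, 2177 and 1858 under PBS, lower within each mouse. On the lower side the smallest p belonged to Rps15a, Rpl32, Rplp2 and Rpl9, with log2 fold changes of -0.19, -0.14, -0.14 and -0.48, none with an unadjusted p under 0.05. Rpl13 was at 0.00.

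Adding the rows inside the genes and the near copies gave 81 members that could be tested. Of these 59 were higher and 22 lower in Klf2 cells, and Rps19 was the 1 member called by edgeR. The shares of all genes in this setting are not given here, so these counts are not read as a lean of the members. Rps29, with 271 UMIs in its own row, had a log2 fold change of 0.38 ± 0.15 (edgeR adjusted p = 0.360). Rps13, nearly all of whose UMIs are in copies, was at 2900 ± 616 in Klf2 and 2142 ± 395 CPM in Cxcr6 cells. Rpl13a, dominated by Snord32a, leaned the other way, at 8482 ± 1127 and 9006 ± 997 with a log2 fold change of -0.22 ± 0.10 (edgeR adjusted p = 0.568).

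Other genes of protein synthesis gave mixed directions, and edgeR called none of the genes in the 7 lists examined. Of 15 tested elongation factors and other 5′ TOP genes, 6 were higher and 9 lower in Klf2 cells (median log2 fold change -0.13). Eef1a1, the elongation factor that delivers tRNA, was at 7057 ± 519 in Klf2 and 7036 ± 691 CPM in Cxcr6 cells. Eif3e, a subunit of the initiation factor that binds the small ribosomal subunit, was at 293 ± 75.5 and 620 ± 48.3, with a log2 fold change of -1.25 ± 0.34 (edgeR adjusted p = 0.0618). Rack1, a scaffold protein bound to the small subunit, had a log2 fold change of -0.33 ± 0.13 (edgeR adjusted p = 0.397). Fau, whose protein is made as a fusion with a ubiquitin-like protein, was at 0.25 ± 0.29. Of 19 tested initiation factors 5 were higher and 14 lower, of 11 ribosome biogenesis factors 2 and 9, and of 4 RNA polymerase I genes 1 and 3. Of 12 mitochondrial ribosomal proteins 7 were higher and 5 lower (median 0.17), and of 6 mTOR and Myc regulators 5 and 1 (median 0.23). Over all genes tested the median was -0.23 and 36.8% were above 0, so lower values were the more common there too.

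Between the TAT-CRE and PBS mice, the question the study was designed for, the ribosomal protein genes differed by less than the spread between mice. The share over all kept cells was 9.27% ± 0.455 (SD, n = 3) in TAT-CRE and 9.15% ± 0.253 (SD, n = 2) in PBS mice, and the groups overlapped. The difference of 0.128 points became -0.133 without TAT-CRE 215 and -0.0503 without PBS 218. It was 0.439 with ribosomal RNA counted, 0.453 at a mitochondrial limit of 15% and 0.919 within Klf2 cells. With 3 mice against 2 an exact permutation test cannot give a p below 0.1. edgeR's quasi-likelihood test called 0 of 73 members and 0% of 5996 genes in either direction, and DESeq2 called 0 members. At an unadjusted p under 0.05, 1 member was higher and 0 lower, beside 2.05% and 1.58% of all genes. A log2 fold change above 0 was found for 38 members and 49.8% of all genes, and the median was 0.01 for the members and 0.00 for all genes.

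The member at an unadjusted p under 0.05 was Rpl7l1, a paralog of Rpl7 with a role in ribosome assembly. It was at 56.0, 123 and 105 CPM under TAT-CRE, 39.9 and 31.9 under PBS, from 112 UMIs in all. Its log2 fold change was 1.39 ± 0.58 (edgeR adjusted p = 1.00). Rpl7 was at 1104, 1105 and 1190 under TAT-CRE, 977 and 935 under PBS (log2 fold change 0.25 ± 0.18). In 5 of the 73 members tested every TAT-CRE mouse lay above both PBS mice, and in 4 every one lay below, where 9.06% and 9.76% of all genes did so. The 5 were Rpl7, Rpl7l1, Rpl22l1, Rplp2 and Rps10, and the 4 were Rpl10a, Rps7, Rps21 and Rps3a2. As shares of the members these are 6.85% and 5.48%, under those of all genes.

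The Klf2 minus Cxcr6 difference was compared between the treatment groups as well. It was 1.12, 2.74 and 2.59 points under TAT-CRE, 1.12 and 1.73 under PBS, so the groups overlapped. The difference between the groups was 0.728 points. It was -0.705 when the mitochondrial limit was set to 15%, 0.122 as a mean over cells and 0.266 after thinning. The 15% limit left 3, 8 and 4 Klf2 cells under TAT-CRE, 3 and 15 under PBS, and thinning left 4 to 17 per mouse. In edgeR's test of the interaction 0 of 62 members and 0% of 2495 genes passed, and 0 members had an unadjusted p under 0.05, beside 0.882% and 1.52% of all genes. DESeq2 called 0 members. The log2 difference was above 0 for 30 members and for 45.7% of all genes. The smallest p belonged to Rpl37a (log2 difference 0.56 ± 0.37) and Rplp1 (0.36 ± 0.25).

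By lineage, the summed share did not differ in one direction. In the 630 CD8 cells it was 9.07%, 9.56% and 9.94% under TAT-CRE, 9.35% and 8.66% under PBS. In the 85 CD4 cells (a Cd4 UMI and no Cd8a or Cd8b1 UMI) it was 8.21%, 8.04% and 8.01% under TAT-CRE, 9.36% and 11.2% under PBS. CD8 cells were higher in the 3 TAT-CRE mice, level in PBS 216 (-0.0117 points) and lower by far in PBS 218, whose CD4 value rests on 8 cells. The mean difference was 0.353 points, 1.07 without PBS 218 and -0.0401 without TAT-CRE 215. It was 0.945 after thinning to 200 UMIs, which left 3 to 12 CD4 cells per mouse, and 0.162 with ribosomal RNA counted. The 742 cells with no Cd4, Cd8a or Cd8b1 UMI were at 9.12%, 9.03%, 9.99%, 9.31% and 9.07% in the same order.

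Single members did pass the test between the lineages. edgeR called 2 of 60 members higher in CD8 cells and 0 lower, where 1.03% of 1939 genes were called higher and 0.0516% lower. At an unadjusted p under 0.05, 13 members were higher and 0 lower, beside 8.77% and 0.722% of all genes. With TMM scaling the median of all genes was itself 0.35, and that of the members 0.39, with 56 members above 0 and 4 below, where 68.5% of all genes were above 0. Scaled by the total alone the medians were 0.12 and 0.16 with 47 above and 13 below, and with median-of-ratios scaling 0.04 and 0.07 with 37 and 23. The members thus moved with the scaling as all genes did, and a member is read here against the median.

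Rpl32, a large-subunit protein, was at 2907, 3575 and 3262 CPM in CD8 cells under TAT-CRE, 3333 and 2870 under PBS. In CD4 cells it was at 2354, 1355 and 1902 under TAT-CRE, 1945 and 2555 under PBS. CD8 cells were higher in every mouse and the lineages did not overlap. Rpl32 was the 1 member of 60 higher in CD8 cells in 5 of 5 mice, where 5.47% of all genes were. The log2 fold change was 0.95 ± 0.19 (edgeR adjusted p = 1.98e-04), 0.60 above the median of all genes. It stayed called by edgeR when any 1 mouse was left out (adjusted p 0.00269 without TAT-CRE 207 to 0.0392 without TAT-CRE 215). With median-of-ratios scaling the adjusted p was 0.122, without the mouse block 0.101 and by DESeq2 0.191, the log2 fold change being 0.62 to 0.65 in these 3. At a mitochondrial limit of 15% and after thinning to 200 UMIs, with fewer genes tested, the log2 fold change was 0.80 ± 0.42 and 0.82 ± 0.48 (edgeR adjusted p = 0.525 and 0.535). These rest on 1 to 4 and on 3 to 12 CD4 cells per mouse.

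Rps20 was at 2647, 2692 and 2676 CPM in CD8 cells under TAT-CRE, 2840 and 2444 under PBS. In CD4 cells it was at 2134, 2003 and 2045 under TAT-CRE, 973 and 2608 under PBS. The log2 fold change of 0.75 ± 0.20 (edgeR adjusted p = 0.0274), 0.40 above the median of all genes, rested in part on the low value of PBS 216, where 13 CD4 cells were summed. Without PBS 216 it was 0.47 (edgeR adjusted p = 0.518), and its call was also lost without TAT-CRE 207 (0.80), TAT-CRE 215 (0.78) or PBS 218 (0.81), where the fold change was no smaller and the SE larger. Next in order of p were Rplp1, Rpl8 and Rps14, with log2 fold changes of 0.49, 0.52 and 0.50 and edgeR adjusted p of 0.0874, 0.189 and 0.235. These are 0.13, 0.16 and 0.14 above the median of all genes, so most of each is the shift that all genes share. With the rows inside the genes and the near copies added, edgeR called 5 members, among them Rpl32, Rps20, Rplp1 and Rpl5. The share of all genes called in that setting is not given here.

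**Figure D5:**
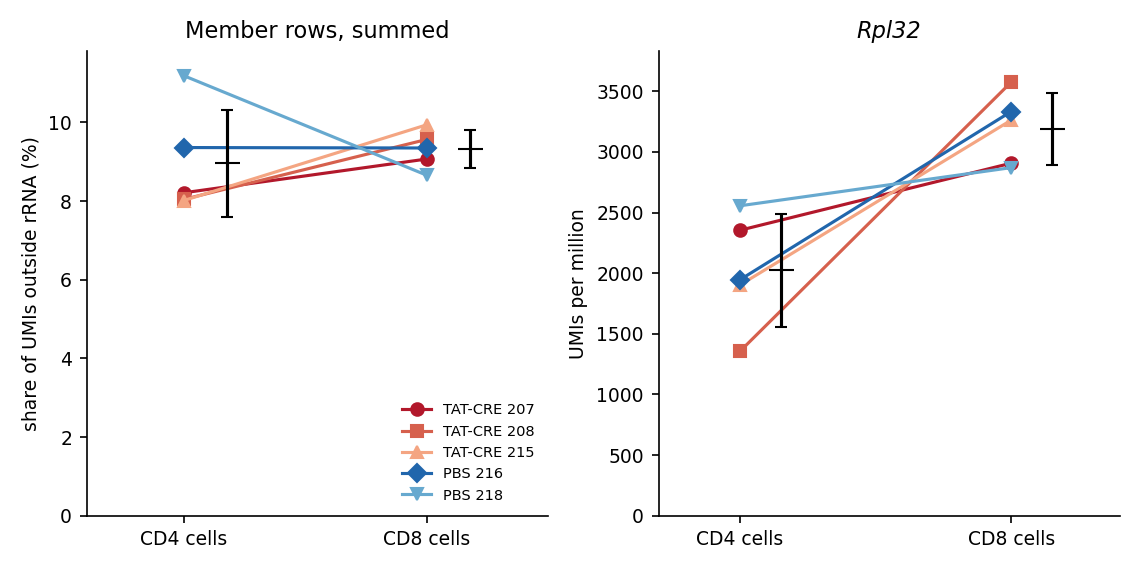
Left, share of UMIs in member rows (y axis, %) in CD4 and CD8 cells with 1 line per mouse and mean ± SD in black: the lines rise in the 3 TAT-CRE mice and fall in PBS 218. Right, Rpl32 in CPM, higher in CD8 cells in each of the 5 mice.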

How the data were processed

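Single T cells were sorted into 384-well plates and sequenced with a plate-based method that tags molecules (per the labels' protocols). The authors deposited UMI counts per gene and well, 1 table per mouse, and the number of cells in each well (per the file headers). bcl2fastq 2.15.0.4 and mm10 are named per the submitters' processing notes; for the aligner and gene annotation the sources used here give no name.

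UMIs were summed per mouse and class. Totals outside ribosomal RNA were 259756 to 470720 per mouse. ERCC spike-ins and the 4 ribosomal RNA rows were left out. Shares are given per mouse; no p is given for a share, since the members, lists and comparisons were chosen with earlier results of these data known. With 5 mice compared within themselves an exact sign-flip test cannot go below 0.0625. Genes were tested with edgeR 4.0.16 (quasi-likelihood, filterByExpr, TMM, Benjamini-Hochberg over all genes tested, threshold 0.05), with the mouse as a block within mice; DESeq2 1.42.0 was an alternative. Each mouse gives both classes, so the pairing is by animal. The test was tried on simulated counts with known changes. The labels give each mouse as a separate replicate, on 1 plate each, so mouse and plate cannot be told apart. No doublet caller was run; wells recorded with 1 cell were used.

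Members named were those with the smallest p in each direction (10 for Klf2 against Cxcr6, 5 otherwise), the 5 with the largest p, Rpsa, Rplp0 to Rplp2 and paralogs with their partners, plus up to 4 genes per pathway list. Members separating groups or mice are named because of their values. Near copies were found with blastn on GENCODE M21 (mm10) transcripts; this alternative was added after seeing the data. Other alternatives changed the UMI minimum, mitochondrial limit, denominator, class genes, scaling, filter and mice. Some genes are not reported here.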

Additional observations from a re-analysis of the deposited data

Results flagged for a closer look

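The CD8 minus CD4 difference in share went one way in the 3 TAT-CRE mice (0.858, 1.52 and 1.92 percentage points) and the other way in PBS 216 and PBS 218 (-0.0117 and -2.53). The mean of the TAT-CRE mice exceeded that of the PBS mice by 2.70 points, and by 5.995 points with the rows inside the genes and the near copies added. The difference was flagged because of its signs, and no p is given for it. An exact permutation test of 3 mice against 2 cannot go below a p of 0.1, so it cannot decide here. The PBS values rest on 13 and 8 CD4 cells, and that of PBS 216 is close to 0. Median UMIs of the CD4 cells were 733 in PBS 216 and 2367 in PBS 218, against 874 to 997 in the TAT-CRE mice.

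Wells without a sorted cell held member UMIs at a share of 7.94% (49 of 617 UMIs in 20 wells).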

How the results depend on the processing

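The Klf2 minus Cxcr6 share kept its sign under every alternative run, and ranged from 1.64 to 2.05 points when 1 mouse was left out. It was 0.976 with ribosomal RNA counted and 2.26 at a mitochondrial limit of 15%, which left 3 to 15 Klf2 cells per mouse. The TAT-CRE minus PBS share ranged from -0.133 to 0.307 on leaving out 1 mouse, negative without TAT-CRE 215 (-0.133) or PBS 218 (-0.0503). It was 0.439 with ribosomal RNA counted, 0.453 at a limit of 15% and 0.919 in Klf2 cells only. The CD8 minus CD4 share ranged from -0.0401 (without TAT-CRE 215) to 1.07 in the same way, and was 0.162 with ribosomal RNA counted and 0.945 after thinning. The group difference in the Klf2 minus Cxcr6 share ranged from 0.421 to 1.24 on leaving out 1 mouse, and was -0.705 at a mitochondrial limit of 15%, 0.122 as a mean over cells and 0.266 after thinning. The causes were not tested.

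For Klf2 against Cxcr6 cells edgeR called 0 members, but 1 (Rps19) with total scaling, median-of-ratios scaling, near copies added or without PBS 216, and 2 (Rps20 and Rplp0) with classes by other genes. Leaving out 1 mouse gave 0 to 1. For CD8 against CD4 cells 2 members were called, 4 in cells without a Cxcr6 UMI, 5 with near copies added and 20 with no filter on low counts. The count was 1 with total scaling, a minimum of 800 UMIs, no mitochondrial limit or ribosomal RNA counted. It was 0 with median-of-ratios scaling, DESeq2, a limit of 15% or thinning, and 1 to 2 on leaving out 1 mouse. Without the replicate block the count was 0 in both comparisons. For TAT-CRE against PBS and for the interaction the count was 0 in each alternative run. The share of all genes called under each alternative is not given here, so these counts are not read as a result about the members. With no filter on low counts, CD8 against CD4 log2 fold changes of Rpl32, Rps20 and Rplp0 were 1.46, 1.26 and 0.82. They were 0.95, 0.75 and 0.33 in the main run. Depth limits single genes: the CD4 cells of a mouse summed to 13366 to 31866 UMIs, and its CD8 cells to 71319 to 230840.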
